A study of Gallus gallus with 3 samples.

Results

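The microRNAs (miRNAs) gga-miR-451, gga-miR-144 and gga-miR-2188, which are linked to red blood cells and written below without the species prefix, were followed in the leg muscle of chicken embryos at 14 days. They were picked by name, 3 of the 542 chicken miRNAs on the array, at a time when their ratios between the strains were already known. Those ratios are therefore described here without a test of their own. Fits over all tested miRNAs include them, and what these fits call is not read as a result about them. Of the 3, miR-451 and miR-2188 gave signals above background in every pool, and miR-144 gave none in any.

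The embryos came from dwarf recessive White Rock chickens, in which part of GHR, the gene of the growth hormone receptor, is deleted, and they were set against normal recessive White Rock embryos. Each strain was represented by 3 pools of RNA from 3 embryos each, 9 embryos per strain, and per the study's methods all embryos were female and skin and bone had been taken off the muscle. Each of 3 two-colour arrays carried 1 dwarf and 1 normal pool. The dwarf pool was labelled with the dye Cy5 on arrays 1 and 3 and with Cy3 on array 2, so n = 3 arrays throughout, and this number limits the precision.

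In vertebrates miR-451 and miR-144 are made from one primary transcript that is switched on as red cells form, in mouse and zebrafish by the transcription factor GATA1. miR-451 is unusual in that Argonaute 2 rather than Dicer cuts its short hairpin. It is one of the most plentiful miRNAs of mature red cells in mammals and fish, and bird red cells differ from those of mammals in keeping their nuclei. miR-2188 is a miRNA of non-mammalian vertebrates.

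The target sequences on the array are shown to make clear which molecules were read and how little they have in common. They are written 5′ to 3′ with the seed, bases 2 to 8, in capitals, and miR-101 is added because it carries the seed of miR-144.
miR-451: aAACCGUUaccauuacugaguuu
miR-144: cUACAGUAuagaugauguacuc
miR-2188: aAGGUCCAaccucacauguccu
miR-101: gUACAGUAcugugauaacugaa
The seeds of miR-451 and miR-2188 were found in 0 other probes of the 542, and that of miR-144 in 1, miR-101. The longest run of bases shared with any other probe was 7 for miR-451, 9 for miR-144 and 8 for miR-2188. No member shared a run of 12 bases or more with another probe.

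All 3 members were matched in the RefSeq gene table of the assembly GRCg7b, which was used for names and neighbours only. The genes of miR-451 and miR-144 stand next to each other there, with no gene between them, inside the locus LOC121107271 and between ERAL1 and FLOT2. The table lists miR-451 under the symbol MIR451B, with gga-mir-451 as a synonym. The gene of miR-2188 lies on a different chromosome, inside ANK1. ANK1 encodes ankyrin-1, which ties the membrane of the red cell to its spectrin skeleton in human and mouse. This position does not show which cells of the muscle samples made miR-2188. None of the 3 has a probe for its star strand on the array.

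The arrays showed the muscle miRNAs that the tissue label leads one to look for. miR-206 had signals between 6803 and 19790 in dwarf pools and between 12852 and 20864 in normal pools, and 6 of 7 muscle miRNAs were bright enough to be tested. A signal here is the mean of 6 spots after subtraction of the median empty spot of that channel. The median empty spot read 105 to 170.2 in Cy3 and 36.1 to 57.8 in Cy5. Signals over 32 counted as detected. A miRNA entered the tests when its mean signal over the 6 pools exceeded 32, which 127 of 542 did. The label "red blood cell" could not be checked here with genes of red cells, since these arrays read miRNAs only. The paper also reports mRNA arrays of embryo muscle from both strains, which were not used here. Its list of genes lower in normal than in dwarf embryos includes RHAG, a gene of the red cell membrane. How RHAG relates to the levels of miR-451 and miR-2188 was not tested.

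miR-451, the best known red cell miRNA of the 3, was bright in every pool. Its signal in dwarf pools was 1080 on array 1, 5414 on array 2 and 2960 on array 3. In normal pools it was 1269 on array 1, 515 on array 2 and 4172 on array 3. The dwarf pool was the dimmer one on arrays 1 and 3 and the brighter one on array 2, and the strains overlapped. On each array the pool carrying Cy5 was the dimmer one.

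These signals are not yet comparable between channels, because the channels themselves differ in brightness. Over the 127 tested miRNAs, dwarf pools had a median signal of 301 on array 1, 599 on array 2 and 642 on array 3. Normal pools had 938 on array 1, 182 on array 2 and 2600.1 on array 3. Set against the median of its own channel, miR-451 stood at 3.59, 9.04 and 4.61 times the median in dwarf pools. In normal pools it stood at 1.35, 2.83 and 1.60 times the median. On this scale the dwarf pool was the higher one on all 3 arrays, and every dwarf pool was above every normal pool. How many of the 127 tested miRNAs separate in this way was not counted on this scale, so nothing is read from it.

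miR-2188, the miRNA inside ANK1, was dimmer but also detected in every pool. Its signal in dwarf pools was 231 on array 1, 981 on array 2 and 322 on array 3. In normal pools it was 261 on array 1, 89.7 on array 2 and 676 on array 3. As with miR-451, the dwarf pool was the brighter one on array 2 only. Relative to the channel median it stood at 0.766, 1.64 and 0.501 in dwarf pools and at 0.278, 0.493 and 0.260 in normal pools. Every dwarf pool was then above every normal pool, though the dwarf pool of array 3 and the normal pool of array 2 differed little. Here too the share of all tested miRNAs with such a separation was not counted, and nothing is read from it.

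Detection in all 6 pools was the exception on these arrays. It was reached by 85 of 542 miRNAs, or 15.7%, and by 2 of the 3 members.

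miR-144, the partner of miR-451 in the transcript, did not rise above the empty spots. In dwarf pools its 6 spots averaged 45.6, 112 and 44.0 on arrays 1, 2 and 3 before any subtraction, where the median empty spot of the same channel read 57.8, 105 and 51.9. In normal pools they averaged 106 on array 1, 35.0 on array 2 and 145 on array 3, where the median empty spot read 134, 36.1 and 170.2. The mean lay below the median empty spot in 5 of 6 pools and slightly above it in the dwarf pool of array 2. The number of miR-144 spots above the 95th percentile of the empty spots was 0 of 6 in each pool, against 6 of 6 in each pool for miR-451 and miR-2188.

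miR-144 was among the 393 of the 542 miRNAs, or 72.5%, which were over 32 in no pool. How well its probe responds was not tested, so this reading does not show that miR-144 was absent from the muscle. miR-144 did not enter the tests, and no fold between the strains is given, since both are at background. miR-101, which has the same seed, was dim, at 20.9 to 60.2 in dwarf pools and 6.38 to 193 in normal pools. It was thus over 32 in some pools but not in all.

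**Figure D1:**
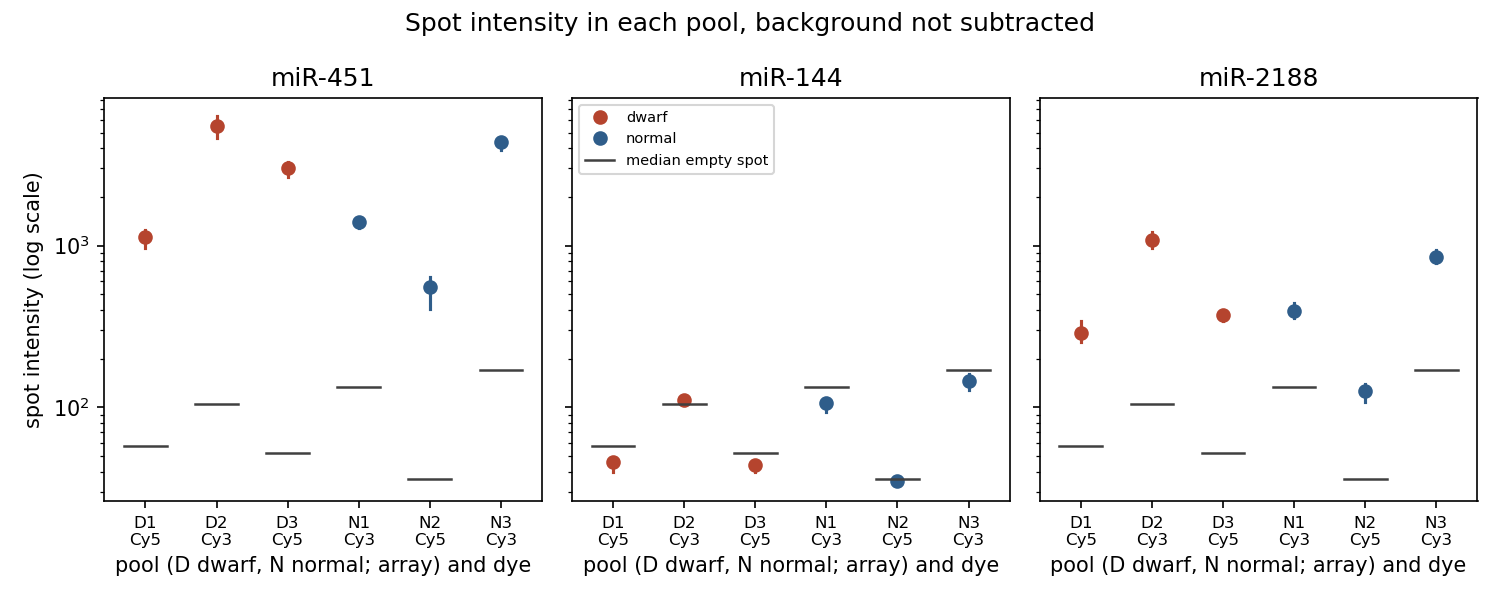
Spot intensity of each miRNA (log scale, background not subtracted) in the 3 dwarf pools, left, and the 3 normal pools, right, with the dye under each pool. Points are the mean of 6 spots, vertical lines run from the lowest to the highest spot, and short horizontal lines mark the median empty spot of that channel. miR-451 and miR-2188 lie above the empty spots in all 6 pools and miR-144 lies at them.

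The 6 spots of a miRNA lie in an upper and a lower block of the array, 3 in each. For miR-451 the spot SD ranged from 5.39% to 16.8% of the signal, and for miR-2188 from 7.06% to 14.6%. The widest spread of miR-451 was in the normal pool of array 2. There the upper block gave a signal of 449 and the lower block 582. In the dwarf pool of the same array the upper block gave 4769 and the lower block 6059, so both dyes were brighter in the lower block. The ratio within the array, after normalization, was 2.23 in the upper and 2.26 in the lower block.

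The main comparison asked how the dwarf pool differed from the normal pool within each array. After a background correction with an offset of 50 and loess normalization, the log2 ratio of miR-451, dwarf over normal, was 0.76 on array 1, 2.25 on array 2 and 0.85 on array 3. The mean was 1.28 ± 0.83 (SD, n = 3), or 2.44-fold, and 0.80 without array 2. Its standard error was 0.48 from the 3 arrays alone and 0.37 in limma, which shares the spread over miRNAs. miR-451 was higher in the dwarf pool on 3 of 3 arrays, with the largest ratio on array 2. All 6 spots were above 0 on each array, and the lowest spot was at 0.50 on array 1.

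For miR-2188 the log2 ratio was 0.79 on array 1, 1.68 on array 2 and 0.60 on array 3. The mean was 1.03 ± 0.58 (SD, n = 3), or 2.04-fold, and 0.70 without array 2. Its standard error was 0.33 from the 3 arrays alone and 0.27 in limma. miR-2188 was likewise higher in the dwarf pool on 3 of 3 arrays and largest on array 2, and all 6 spots were above 0 on each array.

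Across all 127 tested miRNAs, limma with Benjamini-Hochberg adjustment called 0 between the strains, or 0%, the members included. The smallest adjusted p of the whole table was 0.234 and 14 miRNAs had an unadjusted p under 0.05. A fit of the separate channels called 0 as well. A fit with a dye coefficient called 3 of 127, or 2.36%, with miR-451 among them. In that fit array 2 is the only array with the dyes swapped, and so adds nothing to the error. A ratio above 0 on all 3 arrays was found for 17 of 127 miRNAs, or 13.4%, both members included. A mean ratio of 1 or more was found for 8, or 6.3%, again with both members. Because the members were chosen with this contrast known, nothing is read from these counts or from the call of miR-451.

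In order of their mean ratio miR-451 was the fifth and miR-2188 the eighth of 127. The 4 miRNAs ahead of miR-451 were miR-203, miR-200b, miR-205a and miR-429, and miR-146a and miR-146c stood between the members. The median ratio of all tested miRNAs was -0.05, and the median SD between arrays was 0.33. After loess, 9.45% of the tested miRNAs had a larger SD between arrays than miR-451, and 22.8% a larger one than miR-2188. This order turned with the scaling. The shares were 35.4% and 55.9% in the deposited log2 ratios, and 97.6% and 77.2% for plain signals set against the channel median.

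**Figure D2:**
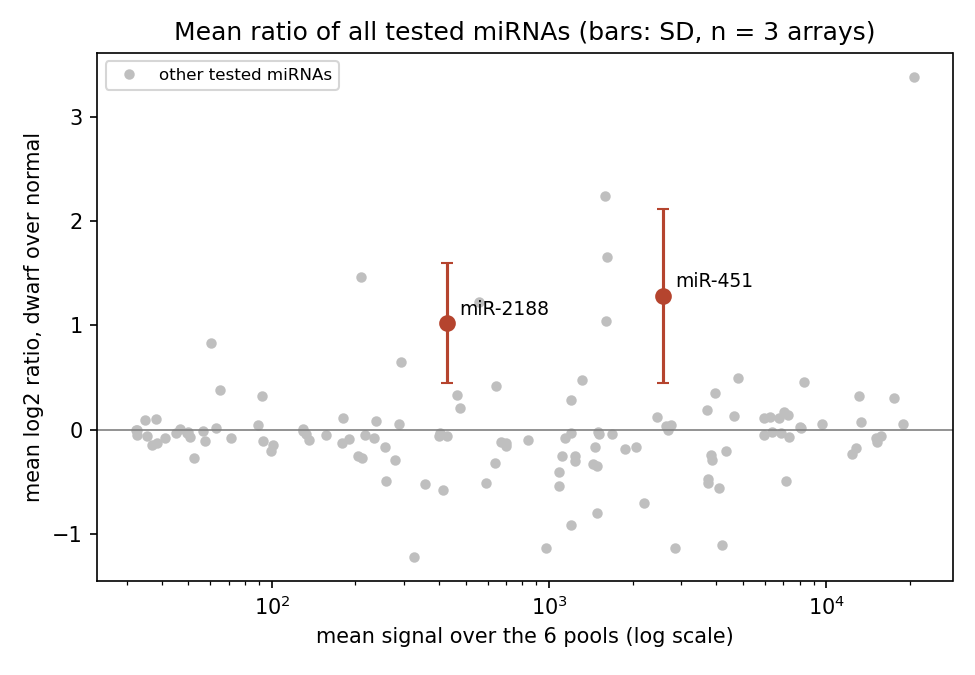
Mean log2 ratio of dwarf over normal (vertical axis) against the mean signal over the 6 pools (horizontal axis, log scale) for the 127 tested miRNAs. Red points are miR-451 at 1.28 and miR-2188 at 1.03 with their SD over 3 arrays as bars, and grey points are the other miRNAs.

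In normalised level, which is the channel value after loess and after the arrays were brought to one scale and which includes the offset, miR-451 averaged 3338 ± 1664 in dwarf pools and 1279 ± 218 in normal pools (SD, n = 3 each). Dwarf pools had 2056 on array 1, 5218 on array 2 and 2740 on array 3. The level was 1215, 1100 and 1521 in the normal pools. The strains did not overlap, and the normal pools were close together while the dwarf pool of array 2 stood far above the other dwarf pools.

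The normalised level of miR-2188 averaged 692 ± 478 in dwarf pools and 301 ± 76.9 in normal pools (SD, n = 3 each). Dwarf pools had 417 on array 1, 1244 on array 2 and 415 on array 3, and normal pools had 241, 387 and 274. The strains did not overlap here either, with the normal pool of array 2 just under the dwarf pools of arrays 1 and 3. Such a separation with dwarf above normal was found for 6 of 127 miRNAs, or 4.72%. The other 4 were miR-146c, miR-200a, miR-203 and miR-429.

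The levels of the 2 detected members were correlated over all 6 pools, with the dwarf pools of both above the normal pools. Pearson's r of the log2 normalised levels was 0.877 and Spearman's rho was 0.771 over 6 pools. The 6 points share 3 arrays, so they are not independent, and both values are descriptions. Among all other tested miRNAs, miR-2188 had the highest r with miR-451, and miR-451 came next to the highest with miR-2188. The median r was 0.01 for miR-451 and 0.06 for miR-2188. The members were chosen with their strain ratios known, and a strain difference shared by both raises their r. Nothing is therefore read from this order, and no order was computed with the strain means taken out. After the mean of each strain was taken out, r was 0.775, and the dwarf pool of array 2 was the highest pool for both. The remaining pools went together less. The normal pool of array 2 was the lowest normal pool for miR-451 (1100) and the highest for miR-2188 (387). Dwarf pools of arrays 1 and 3 had 2056 and 2740 for miR-451, but 417 and 415 for miR-2188. No r was computed within a strain. Since miR-144 read as background, no r was computed for it.

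**Figure D3:**
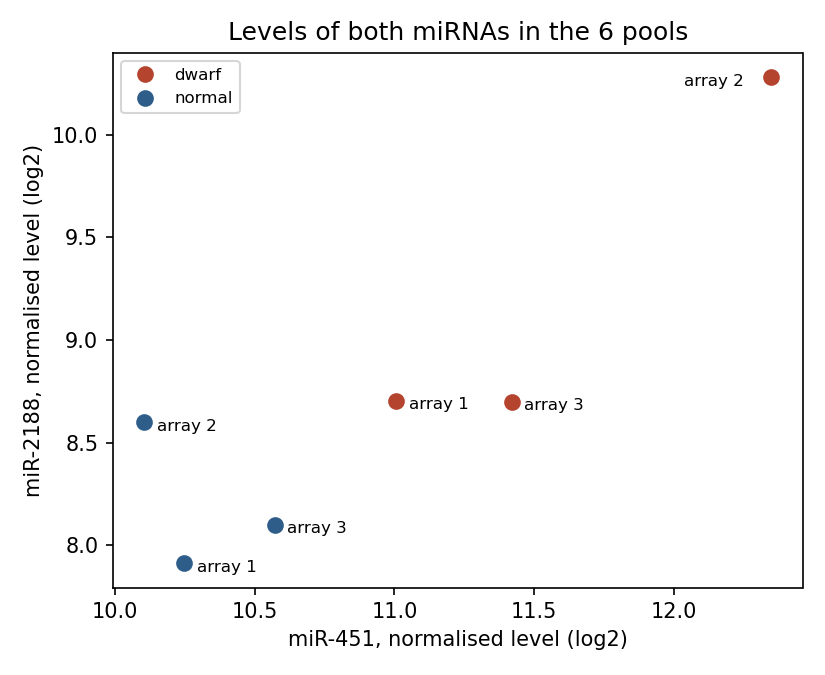
Normalised level of miR-2188 (vertical, log2) against that of miR-451 (horizontal, log2) in the 3 dwarf pools and the 3 normal pools, with the array beside each point. All dwarf points lie to the right of all normal points, and the dwarf pool of array 2 is the highest in both.

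The miRNAs most like miR-451 in level over the 6 pools were miR-1664 with r = 0.796, miR-21 with r = 0.681 and miR-19b with r = 0.681. miR-21 is a widely expressed miRNA and miR-19b belongs to the miR-17-92 cluster. Those most like miR-2188 were miR-1664 with r = 0.888, miR-24 with r = 0.764 and miR-18a with r = 0.763. Their strain ratios were smaller than those of the members. The mean was 0.38 for miR-1664, 0.49 for miR-21, 0.29 for miR-24, 0.21 for miR-19b and 0.08 for miR-18a. For miR-19b the ratio was 1.16 on array 2 and below 0 on the other arrays.

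The other miRNAs tied to red cells that had a probe on the array did not show ratios of this size. miR-16, which is plentiful in red cells and in many other tissues, had a mean log2 ratio of 0.17 ± 0.06 (SD, n = 3). It was above 0 on 3 of 3 arrays, which was the case for 17 of 127 miRNAs, or 13.4%. miR-92 had -0.11 ± 0.57 and miR-15a had 0.06 ± 0.55. Their list holds 6 miRNAs, of which 3 have a probe on the array, so the rest were not measured. All 3 were tested, with a median of 0.06 against -0.05 for all tested miRNAs. miR-15a was dim, with a signal of 31.5 in the dwarf pool of array 1 and 42.0 in the normal pool of array 2. Of 4 miRNAs that fall as red cells mature in human cells, 3 were tested, with a median of -0.25. miR-221 had -0.30 ± 0.03 and miR-222 had -0.25 ± 0.21, each below 0 on 3 of 3 arrays, which was the case for 24 of 127 miRNAs, or 18.9%. miR-24 had 0.29 ± 0.56. None of these passed the limma threshold. Both lists were chosen with earlier results of these data known, so nothing is read from their counts.

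Lists of markers of other cells in or around the muscle were read in the same pools, and none of their members passed the limma threshold. They too were chosen with earlier results of these data known, so nothing is read from their counts. Of the skin epithelium list all 6 members were tested, and 5 of them had a ratio above 0 on all 3 arrays, against 13.4% of all tested miRNAs. The median of the list was 2.10, 2.32 and 0.54 on arrays 1, 2 and 3. Their summed signal, before normalization, was 28208 to 50581 in dwarf pools and 274 to 19562 in normal pools. Most of it in each pool was miR-203, with 25734 to 43293 in dwarf pools and 257 to 14021 in normal pools. Any part of skin epithelium in the values of miR-451 and miR-2188 was not tested.

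Of the white blood cell list 4 of 7 members were tested, and 2 of these, miR-146a and miR-146c, had a ratio above 0 on all 3 arrays, with means of 1.23 ± 1.05 and 1.04 ± 0.70 (SD, n = 3), against the same 13.4%. Their relative miR-146b, also tested, did not rise throughout. Its ratio was 0.48 for array 1, -0.012 for array 2 and -0.34 for array 3, averaging 0.045 ± 0.41 (SD, n = 3). The summed signal of the tested members, before normalization, was 1755 to 2974 in dwarf pools and 305 to 5425 in normal pools. miR-223, a miRNA of granulocytes and their precursors, had a mean of 0.0085, and miR-142-3p and miR-142-5p, found across white cells, were over 32 in no pool. miR-126, the miRNA of the lining of blood vessels, had a mean of 0.13 ± 0.06 and was above 0 on 3 of 3 arrays, as were 13.4% of all tested miRNAs. In tissue of many cell types, more red cells in a pool and more of a miRNA per cell cannot be told apart.

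Array 2, which gave the largest ratios after loess, is also the array with the dyes swapped. Written as Cy5 over Cy3, the log2 ratio averaged -0.21 for miR-451 and -0.10 for miR-2188. These are the strain ratios with the sign of array 2 turned. As the dye swap is not balanced, any strain difference enters both their mean and their spread between arrays, so nothing is read from them. On 3 arrays the deviation of array 2 from the others and the dye of its pools cannot be told apart.

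The direction on arrays 1 and 3 rested on the scaling of the channels. With no normalization the log2 ratio of miR-451 was -0.26 on array 1, 3.27 on array 2 and -0.50 on array 3, and that of miR-2188 was -0.28, 2.85 and -1.02. The medians of all tested miRNAs on those arrays were then -0.96, 0.88 and -1.48, so both members were above the median on every array. With each array centred on its median and no loess, miR-451 had 0.70, 2.38 and 0.98 and miR-2188 had 0.68, 1.97 and 0.46. In the log2 ratios deposited by the authors, miR-451 had 0.99, 1.86 and 1.04 and miR-2188 had 1.08, 1.55 and 0.91.

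How far array 2 stood apart differed with the processing. With plain subtraction in place of the offset and loess kept, the log2 ratio of miR-451 was 0.94 on array 1, 2.09 on array 2 and 0.94 on array 3, and that of miR-2188 was 1.13, 1.71 and 0.88. Array 2 was still well above the others for miR-451. When the background step and the normalization were changed together, with plain signals of at least 32 set against the channel median and no loess, the log2 ratio of miR-451 was 1.41 on array 1, 1.67 on array 2 and 1.52 on array 3, averaging 1.53 ± 0.13 (SD, n = 3). That of miR-2188 was 1.46, 1.73 and 0.94, averaging 1.38 ± 0.40 (SD, n = 3). The ratio was positive on 3 of 3 arrays in this form too.

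**Figure D4:**
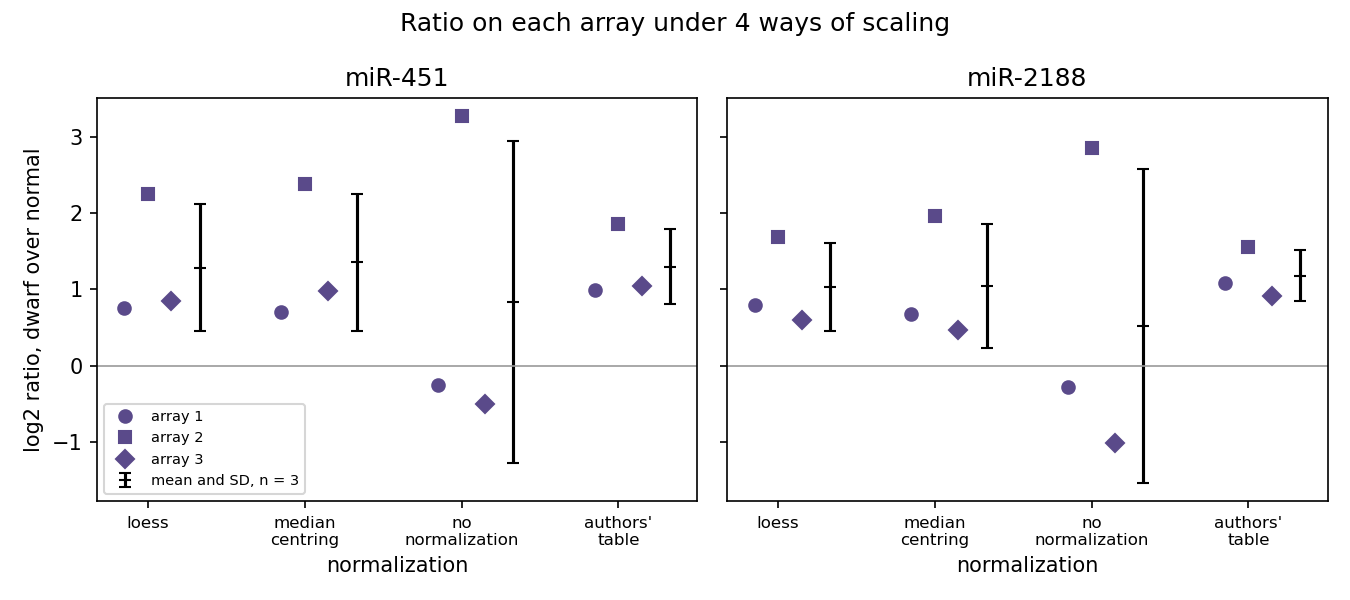
Log2 ratio of dwarf over normal on arrays 1 (circle), 2 (square) and 3 (diamond) for miR-451, left, and miR-2188, right, under 4 ways of scaling, with the mean and SD of 3 arrays as a bar beside them. Array 2 is the highest in each, and arrays 1 and 3 lie below 0 only with no normalization.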

How the data were processed

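RNA was read on 3 two-colour miRNA arrays made by LC Sciences from miRBase. The authors deposited scanner values, the mean density of each spot, as linear intensity with no background subtracted, and per miRNA log2 ratios after background subtraction and LOWESS. Against the scanner values these deposited log2 ratios ran as dwarf over normal on every array (r = 0.965, 0.860 and 0.912 over 127 miRNAs), although the titles give normal first. How they were centred is not given in the sources used here. On the 3 arrays their median was 0.04, 0.03 and -0.13 over all miRNAs, and -0.11, -0.11 and -0.06 over the 127 tested ones.

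Commas in the numbers were removed. The background was corrected from the spot intensities by normexp with an offset of 50, which pulls ratios of dim miRNAs toward 0, followed by a loess fit per array that gave control spots weight 0, and the 6 spots of a miRNA were averaged. Aquantile brought channel levels to one scale. The sign was turned on array 2. Ratios were fitted in limma 3.58.1 (R 4.3.3) with lmFit, eBayes and Benjamini-Hochberg adjustment at 0.05, and the fit was tested on simulated data. Named beside the members were the 3 tested miRNAs with the highest r to each, and at most 4 of each list, those with the highest mean signal, plus the defining markers at background, miR-101 and the miRNAs of the ratio order, which were named with their values in view. The members and lists were chosen with earlier results of these data known. Alternatives covered background, offset, normalization, spots, filter, dye, moderation, the methods' t-test, separate channels, the deposited ratios and each array left out.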

Additional observations from a re-analysis of the deposited data

How the results depend on the processing

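The mean ratio of miR-451 and of miR-2188 was above 0 under each of the 14 alternatives that give it. Without normalization that mean rested on array 2 alone, since both were below 0 on arrays 1 and 3. The mean of miR-451 ran from 0.80 without array 2 to 1.55 without array 1. That of miR-2188 ran from 0.52 without normalization to 1.38 with plain signals set against the channel median, and from 0.70 to 1.24 without each array. Relative to the median of all tested miRNAs, which was -0.50 without normalization, they ran from 0.88 to 1.58 and from 0.77 to 1.32. The use of upper or lower spots only gave 1.31 and 1.26 for miR-451. It and the plain signals against the channel median were chosen after seeing the data.

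At an adjusted p of 0.05, the count of 0 became 2 with median centring (miR-200b and miR-203), 1 with plain signals against the channel median (miR-203), 3 with a dye coefficient (miR-203, miR-205a and miR-451, or 2.36%) and 1 with the methods' t-test at an unadjusted 0.01 (miR-1623), or 0 after Benjamini-Hochberg. The dye fit has 1 residual degree of freedom, and array 2 adds nothing to its error. Nothing is read from its call of miR-451, which was chosen with this contrast known. Separate channels with no replicate block gave 0. Without each array limma called 0, with 4 to 18 miRNAs at an unadjusted p under 0.05. With no filter it called 0 as well, with 31 of 542 at an unadjusted p under 0.05.

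The ratio of Cy5 over Cy3, from which nothing is read, changed sign for miR-2188, to 0.10 with plain subtraction and 0.048 with loess on tested miRNAs, and was -1.38 with no normalization. With plain signals against the channel median it was 0.23, and that of miR-451 was 0.42. Without each array it ran from -0.54 to 0.70, and that of miR-451 from -0.74 to 0.80. The r of miR-451 and miR-2188 was 0.939 against the channel median, 0.964 without normalization and 0.771 as Spearman's rho. It lay between 0.850 and 0.938 when each array was left out. No median r over the other miRNAs was computed for these settings, so nothing is read from the size of these values. Without normalization the brightness of a channel is shared by all its miRNAs. The cause of these shifts was not tested. Few arrays limit every value, and miR-144 is limited by the empty spots.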

Other observations

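The scanner spots of miR-144 read as background in all 6 pools. In the deposited table of log2 ratios it nevertheless has a value on each array. The deposited table holds a ratio for each of the 415 miRNAs that were too dim to be tested here. On arrays 1, 2 and 3, 28, 56 and 35 of them had a deposited ratio of at least 1 in size. The SD of the deposited ratios over these miRNAs was 0.53, 0.63 and 0.57, against 0.93, 1.33 and 0.53 over the 127 tested miRNAs. A user who takes the ratio of miR-144 from that table alone would not see that both channels were at the level of empty spots.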
